A study of Mus musculus with 2 samples.

Results

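Immediate early genes are genes whose transcription switches on within minutes of a stimulus, without new protein synthesis. They were followed here in tuft cells, the rare chemosensory cells of the gut epithelium, sorted from mouse small intestine. The 10 genes, Fos, Fosb, Jun, Junb, Jund, Egr1, Ier2, Ier3, Atf3 and Dusp1, were taken by symbol from a table of 17134 genes, and all 10 were found there. The Spib_KO library came from untreated mice of genotype Spibfl/flVillin-cre, and the WT library from untreated mice of genotype Spib+Villin-cre. Both groups carry Villin-cre, which drives Cre recombinase in the intestinal epithelium. In the Spib_KO group Spib is therefore deleted there and not only in tuft cells. Cells were sorted as EpCAM+ SiglecF+, RNA was taken up in TRIzol, and Smart-seq2 type amplification gave the cDNA. The labels do not give the age or number of mice, or how the tissue was dissociated.

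Mitogens, stress and membrane depolarisation activate MAP kinases and cAMP signalling, which act on factors already bound near these genes, such as serum response factor and CREB. The products are mostly transcription factors. Fos and Jun proteins pair through leucine zippers to form AP-1, Atf3 is a related zipper protein, and Egr1 is a zinc finger factor. Dusp1 is a phosphatase that turns the MAP kinases off again. Enzymatic dissociation and sorting of tissue are known to induce many genes of this kind, so their levels in sorted cells can include a response to the preparation. No sample here was left undissociated, and that contribution was not tested.

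There was 1 library per genotype, so no difference below has a replicate check and no p-value is given. Spib_KO held 17228665 reads assigned to genes and WT held 17925421. Spib had 48 reads in Spib_KO and 6266 in WT, or 2.80 and 348 CPM (counts per 1e+06 reads after TMM scaling). The 12 tuft cell markers were all measured and none was called, with summed levels of 17919 CPM in Spib_KO and 18387 CPM in WT. Markers of some other cell types did differ. Of 7 Paneth cell markers 6 were lower (summed level 977 CPM in Spib_KO, 2481 CPM in WT), as were 3 of 7 goblet cell markers (1334 and 2126 CPM). Of 6 measured enteroendocrine markers out of 8, 5 were lower (33.6 CPM in Spib_KO with Gcg and Tph1 at 0 reads, 134 CPM in WT). Those 5 counted as measured through WT alone, while Chgb, measured in both libraries, was not called (28.7 CPM in Spib_KO, 59.1 CPM in WT). The 8 T and intraepithelial lymphocyte markers in the table summed to 5.77 CPM in Spib_KO and 53.4 CPM in WT, and the 4 that were called lower had been measured through WT alone, which fixed their direction. No enterocyte or stem and progenitor marker was called, with sums of 16638 and 1095 CPM in Spib_KO against 14460 and 1326 CPM in WT. Of 3 measured myeloid markers 1 was lower (22.2 and 31.1 CPM), Lyz2, which like the Paneth cell marker Mptx2 was measured through WT alone, and the B cell, eosinophil, mast cell and stromal markers each summed to at most 3.15 CPM in Spib_KO and 5.61 CPM in WT. Siglec-F is also carried by eosinophils, whose 3 markers in the table summed to 0.12 CPM in Spib_KO, with Prg2 at 0, and 0.22 CPM in WT, with Ccr3 at 0. Cd79a, Csf1r, Cx3cr1, Cpa3 and Mcpt1 were at 0 reads in Spib_KO, and Ms4a2 in WT. In a bulk library, fewer cells of a type and less RNA per cell cannot be told apart. The part of these other cells in the values of the immediate early genes was not tested.

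Most of the immediate early genes were abundant in both libraries, and 7 of the 10 differed by less than 1.5-fold between them. Summed over the 10 genes, the level was 3562 CPM in Spib_KO and 3835 CPM in WT, or 0.355% and 0.385% of reads. By deposited TPM, which allows for transcript length, 7 of the 10 were among the top 10% of genes in Spib_KO, and 7 in WT. The median gene of the whole table had 5.14 TPM in Spib_KO and 5.24 TPM in WT. Ier3, at 4.36 TPM in Spib_KO, lay below that median there. Of the 10 genes, 9 had a CPM of 5 or more with at least 30 reads in Spib_KO and all 10 did in WT. A gene was called higher or lower where the bound of its 95% counting interval nearest 0 lay at least 1 away from 0 on the log2 scale, a 2-fold difference. By this rule 1 of the 10 was lower in Spib_KO, Ier3, and 0 were higher. Over all 10707 measured genes 2.18% were lower and 2.33% higher, 4.51% in all. With only 10 genes, 1 call is the smallest count above 0, and nothing about the group is read from it.

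**Figure D1:**
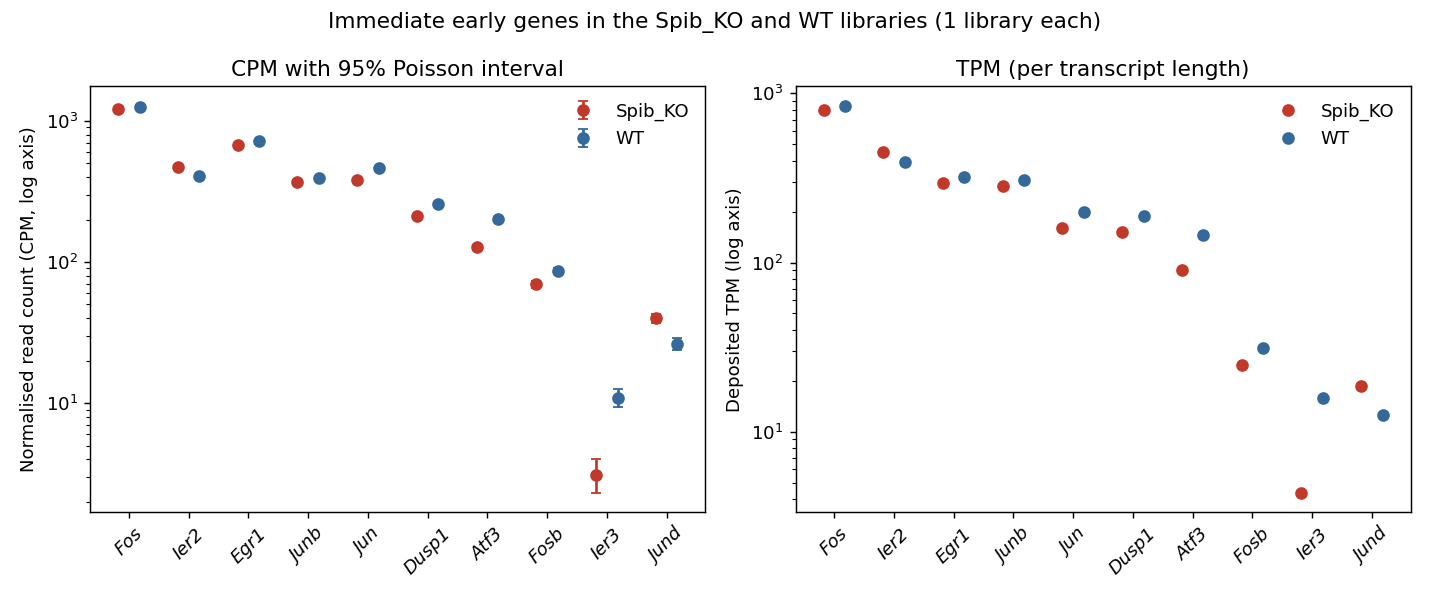
Level of each gene in the Spib_KO library (red, left of each pair) and the WT library (blue, right), as CPM with exact 95% Poisson intervals (left panel) and as deposited TPM (right panel), both on log axes. Fos stands highest in both libraries, at 1214 CPM in Spib_KO and 1263 CPM in WT, and Ier3 has the widest gap, 3.09 CPM in Spib_KO and 10.9 CPM in WT.

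Fos, the main inducible partner of the AP-1 dimer, was the most abundant of the 10 (gene 14281, chromosome 12, 85473890 to 85477274, GRCm38.p6). It had 20828 reads in Spib_KO and 22721 in WT. That is 1214 CPM (95% Poisson interval 1197 to 1230) in Spib_KO and 1263 CPM (1246 to 1279) in WT. The log2 ratio of Spib_KO over WT was -0.06 (95% counting interval -0.08 to -0.03), a Spib_KO level at 96.1% of WT, small next to the spread of measured genes. By TPM it stood at rank 201 of 17134 genes in Spib_KO (799 TPM) and rank 199 in WT (844 TPM). Fosb, the second Fos family gene of the group (chromosome 7, 19302696 to 19310118), was far less abundant, with 24.9 TPM in Spib_KO and 31.2 TPM in WT. Fos was 32.1 times its level per length in Spib_KO and 27.1 times in WT. Fosb had 1198 reads in Spib_KO and 1561 in WT, a log2 ratio of -0.31 (-0.42 to -0.20). The Poisson intervals of its CPM, 65.9 to 73.9 in Spib_KO and 82.5 to 91.2 in WT, did not overlap.

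Among the Jun family, which supplies the other AP-1 partner, Junb was highest and Jund lowest in both libraries. Junb (chromosome 8, 84976909 to 84978748) had 284 TPM in Spib_KO and 306 TPM in WT. Its 6367 reads in Spib_KO and 7072 in WT gave a log2 ratio of -0.08 (-0.13 to -0.03). Jun (chromosome 4, 95049036 to 95052222), which can also pair with itself, had 160 TPM in Spib_KO and 198 TPM in WT. Its log2 ratio was -0.29 (-0.34 to -0.24), from 6541 reads in Spib_KO and 8378 in WT. Both genes were thus lower in Spib_KO by less than the 2-fold bound. Jund (chromosome 8, 70697739 to 70700616), known in many tissues as the steadily expressed Jun gene, had the largest difference upward of the 10. It had 686 reads, or 40.0 CPM (37.0 to 43.1), in Spib_KO and 473 reads, or 26.3 CPM (24.0 to 28.8), in WT. The log2 ratio was 0.60 (0.43 to 0.78), and the intervals of the libraries did not overlap. The gene was not called, since its lower bound lay under 1.

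The value of Jund carries limits of its own. In GENCODE M21 the antisense gene Gm11175, not analysed here, covers 52.6% of the 1668 exon bases of Jund on the opposite strand, and the library chemistry does not keep strand. The deposited reads and FPKM of Jund imply an effective length of 2676 bases in Spib_KO and 2657 in WT, longer than the GENCODE transcript, so its TPM depends on the transcript model. Overlaps were smaller elsewhere. Junos covers 7.28% of the exon bases of Jun, and Prdx2 covers 7.52% of those of Junb. Prdx2 itself had 4128 reads in Spib_KO and 3870 in WT, a log2 ratio of 0.16.

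Within families the genes kept the same order in both libraries. Fos made up 97.0% of the summed TPM of Fos and Fosb in Spib_KO and 96.4% in WT. Junb made up 61.4% of the Jun family sum in Spib_KO and 59.3% in WT, Jun 34.6% and 38.3%, and Jund 4.05% and 2.42%. The share of Jund rests on its TPM, which depends on the transcript model. The sum of Fos and Fosb was 1.78 times the Jun family sum in Spib_KO and 1.69 times in WT.

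Egr1, a zinc finger factor that answers to ERK signalling (chromosome 18, 34861207 to 34864956), had 11568 reads in Spib_KO and 13062 in WT. Its level was 674 CPM (662 to 686) in Spib_KO and 726 CPM (713 to 738) in WT, a log2 ratio of -0.11 (-0.14 to -0.07). Atf3, a zipper factor best known as a stress-induced repressor (chromosome 1, 191170296 to 191183333), stood further apart. It had 2183 reads, or 127 CPM (122 to 133), in Spib_KO and 3639 reads, or 202 CPM (196 to 209), in WT. The log2 ratio was -0.67 (-0.75 to -0.59), which leaves 62.9% of the WT level. Of the measured genes 16.5% differed by more than this in either direction. Atf3 was not called at the 2-fold bound. At a bound of 1.5-fold it and Ier3 were called lower, a rule that called 5.52% of measured genes lower and 5.59% higher, 11.1% in all.

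Dusp1, the nuclear phosphatase that inactivates p38, JNK and ERK (chromosome 17, 26505591 to 26508472), had 3623 reads in Spib_KO and 4602 in WT. Its level was 211 CPM (204 to 218) in Spib_KO and 256 CPM (248 to 263) in WT, a log2 ratio of -0.28 (-0.34 to -0.21). Ier2, an early response gene coding for a nuclear protein (chromosome 8, 84661331 to 84662852), was with Jund one of the 2 genes above 0. It had 8076 reads, or 471 CPM (460 to 481), in Spib_KO and 7318 reads, or 407 CPM (397 to 416), in WT, a log2 ratio of 0.21 (0.16 to 0.26). Ier2 lies 314056 bases from Junb, whose ratio was on the other side of 0.

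Ier3, which codes for a small protein linked to cell survival downstream of ERK and NF-kB, was the one gene called lower (gene 15937, chromosome 17, 35821713 to 35822911). It had 53 reads in Spib_KO and 196 in WT. Its level was 3.09 CPM (2.31 to 4.04) in Spib_KO and 10.9 CPM (9.42 to 12.5) in WT. The log2 ratio was -1.81 (-2.28 to -1.37), a 3.50-fold lower level, and 1.32% of measured genes had a lower ratio. Ier3 was also the least abundant of the 10 in Spib_KO, at 4.36 TPM, while in WT it had 15.8 TPM. It counted as measured through the WT library alone, where it was high. With a minimum of 20 CPM it was no longer measured and 0 of the 10 were called, against 1.31% of 7695 genes called higher and 1.38% lower, 2.69% in all. With a bound of 2 on the log2 scale, a difference of 4-fold, 0 of the 10 were called, against 0.607% of genes higher and 0.822% lower, 1.43% in all.

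**Figure D2:**
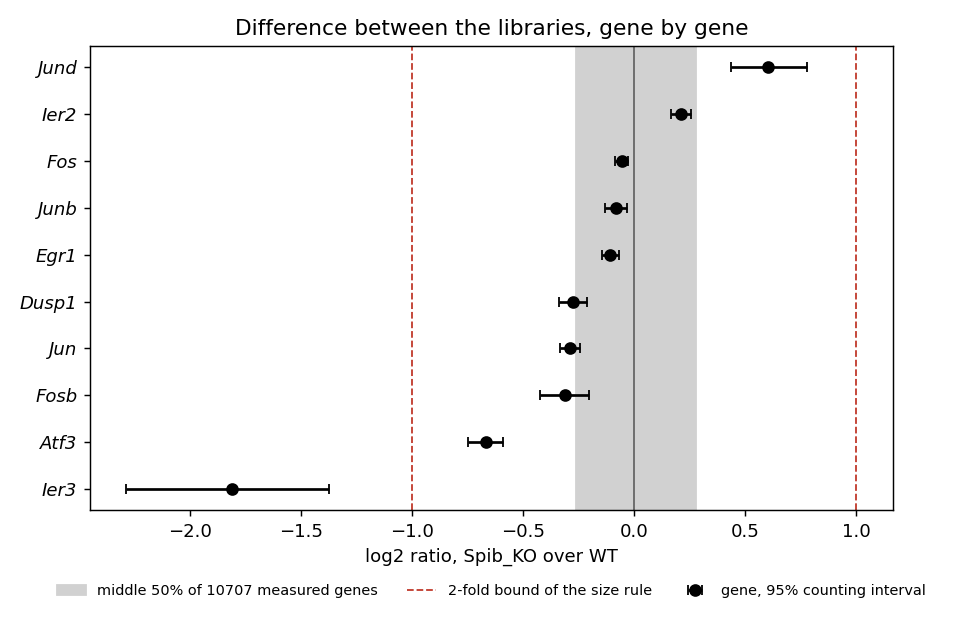
Log2 ratio of Spib_KO over WT for each gene (points) with its 95% counting interval (bars), the middle 50% of measured genes (grey band) and the 2-fold bound (dashed lines). Ier3, at -1.81, is the one gene whose whole interval lies beyond the bound, and Jund, at 0.60, and Ier2, at 0.21, are the genes above 0.

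Over the group, 8 of the 10 ratios lay below 0 and 2 above, and in no case did the counting interval include 0. Of all measured genes 48.8% had a ratio below 0. The intervals cover counting error only, and 33.8% of measured genes had one wholly below 0 and 35.0% one wholly above, so an interval that leaves out 0 is common in these libraries. The median ratio was -0.19 over the 10 genes and 0.01 over all measured genes, whose quartiles were -0.26 and 0.28. A difference of less than 1.5-fold, found for 7 of the 10, was found for 79.5% of measured genes. The 7 genes of at least 80 TPM in both libraries ranged between -0.67 and 0.21, and the 3 genes under 32 TPM in both (Fosb, Jund and Ier3) ranged between -1.81 and 0.60. A narrower spread at higher level was seen in the table as a whole. Among the 2076 measured genes with a mean of 100 CPM or more the quartiles were -0.18 and 0.19. Fos, Junb and Egr1 lay inside that range and Jun, Atf3, Dusp1 and Ier2 outside it.

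**Figure D3:**
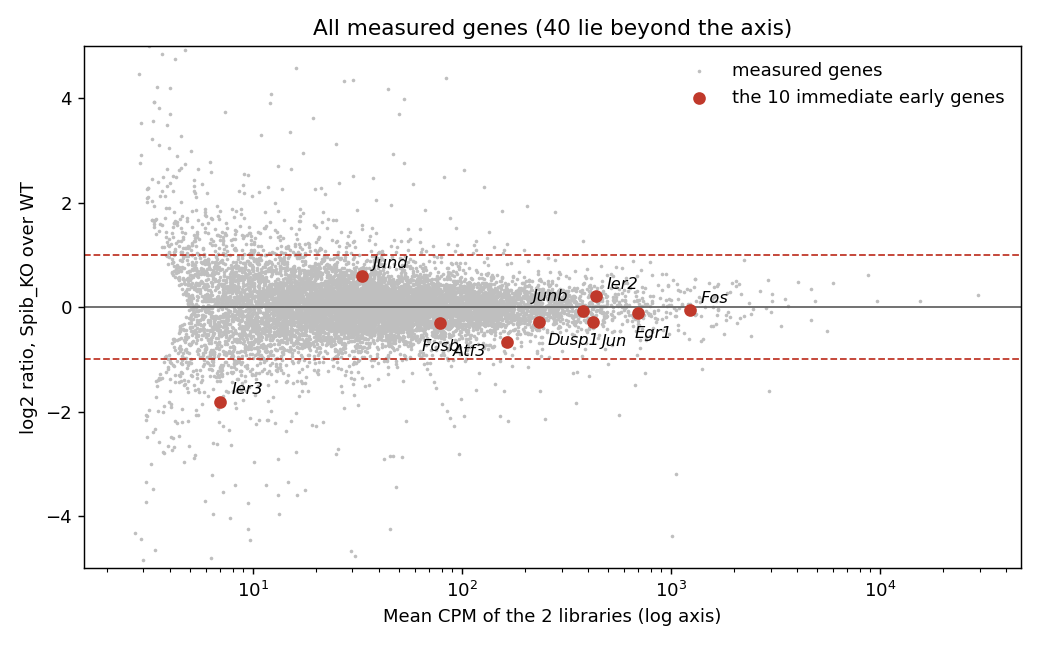
Log2 ratio of Spib_KO over WT against the mean CPM of the 2 libraries (log axis) for all measured genes (grey) and the 10 immediate early genes (red, named), with the 2-fold bound dashed. Ier3 sits at low level beyond the bound, and Fos, at -0.06, lies near 0 at the high end. A further 40 genes lie beyond the axis limits of 5.

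The order of the genes was nearly the same in both libraries. By TPM it ran Fos, Ier2, Egr1, Junb, Jun, Dusp1, Atf3, Fosb, with Jund ahead of Ier3 in Spib_KO and Ier3 ahead of Jund in WT. That one exchange rests on the TPM of Jund, which depends on the transcript model as described above. The place of Egr1 next to Junb depends on it too. The deposited values of Egr1 imply an effective length of 2870 bases in Spib_KO and 2852 in WT, shorter than its GENCODE transcript of 4484 bases. In Spib_KO the neighbours Egr1 (295 TPM) and Junb (284 TPM) did not differ beyond their counting intervals, nor did Jun (160 TPM) and Dusp1 (152 TPM). In WT every neighbouring pair differed beyond its counting intervals, Egr1 (321 TPM) and Junb (306 TPM) included, though those of Ier3 (15.8 TPM) and Jund (12.5 TPM) nearly touched. Ier2 had 447 TPM in Spib_KO and 394 TPM in WT, second in both. Atf3 had 89.9 TPM in Spib_KO and 145 TPM in WT, seventh in both.

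The 10 genes share a low number of introns in GENCODE M21, which the choice of genes did not use. Jun, Junb, Jund and Ier2 have no intron, as do 1.40% of the 9859 measured genes that could be matched. The largest number among the 10 was 3 introns, and 17.9% of those genes have at most that many. Since the cut was the maximum of the 10 genes themselves, all 10 meet it by construction. The median transcript had 1987 bases, against 3066, but those of Egr1 (4484 bases), Fosb (3782) and Jun (3189) were longer than that. Their 3′ UTRs held a median of 2.89 copies of ATTTA per 1000 bases, against 1.35. This pentamer is the core of AU-rich elements, which are known to shorten the life of messenger RNA. Ier3 had the highest density, 8.16 per 1000 bases with 5 copies, followed by Dusp1 with 5.80 and Fos with 4.91. Ier2 had none, and Fosb had 1 copy in 2145 bases. These are descriptions of the annotation, given without a test.

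Promoter windows ran from 250 bases before to 50 bases after the start site, from RefSeq on GRCm38.p6. They were used for 8 of the 10 genes, and not for Egr1 and Ier2. The windows of Ier3 and Atf3 are shown because these genes differed most downward, that of Fos because it was the most abundant, and that of Dusp1 because it holds the full cAMP response element. Capitals mark matches on either strand to TGACGTCA (the cAMP response element bound by CREB) and its core TGACG, which lies within it. They also mark the TATA box, searched as TATAA. The CCAAT box is marked by its own letters. The box bound by Spi-B and its relative PU.1 was searched as GAGGAAG. A match describes the letters only.
Ier3, chr17:35821463-35821762, plus strand: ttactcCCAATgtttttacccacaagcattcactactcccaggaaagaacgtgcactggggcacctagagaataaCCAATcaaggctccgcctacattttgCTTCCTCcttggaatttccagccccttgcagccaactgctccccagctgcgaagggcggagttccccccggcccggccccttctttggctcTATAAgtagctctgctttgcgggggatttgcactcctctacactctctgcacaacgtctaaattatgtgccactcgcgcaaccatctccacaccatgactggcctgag
Atf3, chr1:191183284-191183583, minus strand: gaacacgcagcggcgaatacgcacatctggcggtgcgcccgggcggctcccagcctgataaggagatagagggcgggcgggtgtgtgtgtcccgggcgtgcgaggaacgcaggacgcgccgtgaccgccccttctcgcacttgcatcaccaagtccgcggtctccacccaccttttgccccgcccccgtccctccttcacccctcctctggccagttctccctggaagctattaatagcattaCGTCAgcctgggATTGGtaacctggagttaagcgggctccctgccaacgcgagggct
Fos, chr12:85473640-85473939, plus strand: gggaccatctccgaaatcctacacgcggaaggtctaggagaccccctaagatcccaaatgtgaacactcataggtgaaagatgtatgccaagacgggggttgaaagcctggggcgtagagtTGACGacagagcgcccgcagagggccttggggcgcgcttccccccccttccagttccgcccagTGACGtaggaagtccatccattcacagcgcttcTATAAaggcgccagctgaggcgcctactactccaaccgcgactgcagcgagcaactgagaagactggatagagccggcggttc
Dusp1, chr17:26508423-26508722, minus strand: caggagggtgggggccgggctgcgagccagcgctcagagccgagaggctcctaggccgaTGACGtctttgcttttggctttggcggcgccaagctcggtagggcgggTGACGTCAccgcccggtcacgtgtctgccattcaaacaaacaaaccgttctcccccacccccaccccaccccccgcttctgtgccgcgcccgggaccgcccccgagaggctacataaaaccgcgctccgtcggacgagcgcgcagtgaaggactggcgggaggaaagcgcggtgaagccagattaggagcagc

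The core TGACG was the motif most often found. It was in 5 of the 8 windows (Fos, Fosb, Junb, Atf3 and Dusp1), against 23.0% of the 27025 genes with a window and 35.8% of the 8702 measured genes among them. In Fos it began 129 and 66 bases before the start site, and in Dusp1 the full element began 143 bases before it. The full element TGACGTCA was in 1 of 8 windows, and in 2.03% of all genes and 3.65% of measured genes. TATAA was in 3 of 8 (Fos, Junb and Ier3) and in 28.0% of all genes and 16.4% of measured genes. The match began 33 bases before the start site in Fos, 58 bases before it in Ier3 and at the annotated start site itself in Junb. CCAAT was in 4 of 8 (Jun, Junb, Atf3 and Ier3), and in 41.1% of all genes and 43.8% of measured genes.

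GAGGAAG, the letters closest to the factor deleted here, was in 1 of 8 windows, that of Ier3, on the opposite strand and starting 149 bases before the start site. It was in 15.4% of all genes and 15.2% of measured genes, so 1 of 8 is near the background. The AP-1 site TGANTCA and the serum response element, known by name as the CArG box, were in 0 of 8 windows. They were in 8.97% and 1.81% of all genes, or 6.03% and 1.62% of measured genes. Sites more than 250 bases before the start site, and any sites of Egr1 and Ier2, were not searched for, so the 0 holds for these windows only. The window of Jund held none of the 7 motifs. It lies at a RefSeq start site upstream of the GENCODE transcript.

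**Figure D4:**
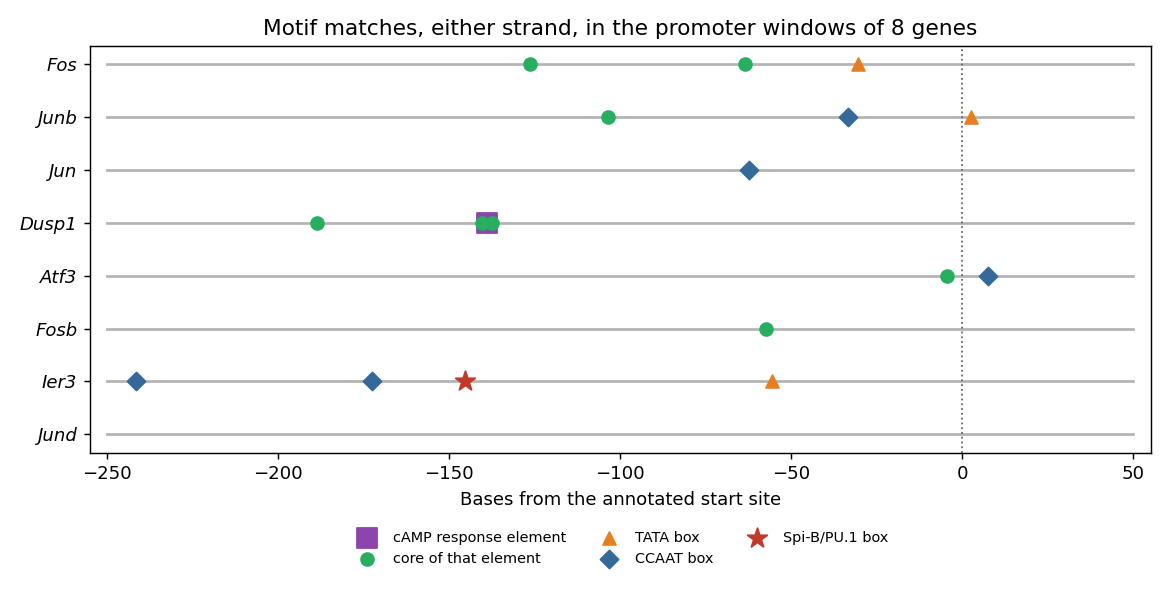
Position of motif matches on either strand in the promoter windows of 8 of the genes, in bases from the annotated start site (dotted line). The core of the cAMP response element (green) appears in 5 windows, and the Spi-B/PU.1 box (red star) in that of Ier3 only.

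The rest of the early response pathway was read from 8 further lists, of which 118 of 144 genes were measured. Of these 2 were higher and 5 lower in Spib_KO, 1.69% and 4.24%, against 2.33% and 2.18% of all measured genes, and their median ratio was -0.13. The other AP-1 and ATF zipper factors had 1 of 21 measured genes lower, 0 higher and a median of -0.24. The one called was Creb3l2, a membrane-bound factor of the secretory pathway, which fell to 99 reads in Spib_KO, against 270 in WT, a log2 ratio of -1.37 (-1.73 to -1.04). The amino acid and stress response factor gene Atf4, which had the most reads of that list, had 113 CPM in Spib_KO and 129 CPM in WT. Creb3 had 94.0 and 93.6 CPM, and its exons overlap Tln1 on the opposite strand. The remaining Fos family genes Fosl1 and Fosl2 were not called. Fosl1 had 78 reads in Spib_KO and 145 in WT, a ratio of -0.82 (-1.24 to -0.42), though 57.2% of its exon bases overlap Ccdc85b. Fosl1 counted as measured through WT alone (4.55 CPM in Spib_KO, 8.06 CPM in WT), which fixed its direction. Fosl2 had 422 and 619 reads, a ratio of -0.48 (-0.67 to -0.30).

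Of 17 measured genes for other immediate early transcription factors, 1 was lower (5.88%) and 0 higher, with a median of -0.17. Over all measured genes 2.18% were lower and 2.33% higher. With 17 genes, 1 call is the smallest count above 0. Nr4a2, an orphan nuclear receptor gene, fell to 83 reads in Spib_KO, against 282 in WT, a log2 ratio of -1.69 (-2.07 to -1.34). It counted as measured through WT alone (4.84 CPM in Spib_KO, 15.7 CPM in WT). Its relative Nr4a1 was not called and had 83.8 CPM in Spib_KO and 58.6 CPM in WT, a ratio of 0.52. Egr2, a relative of Egr1, had 38.1 CPM in Spib_KO and 22.7 CPM in WT, a ratio of 0.74 (0.56 to 0.93). The genes of the list with the most reads were close in both libraries. Id1, an inhibitor of helix-loop-helix factors, had 292 CPM in Spib_KO and 310.1 CPM in WT, and the zinc finger gene Klf6 had 273 and 270.4 CPM.

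The early response effectors and feedback genes had 3 genes lower and 0 higher among 29 measured, 10.3% lower, against 2.18% lower and 2.33% higher over all measured genes. Their median ratio was -0.00072. Socs3, an inhibitor of cytokine receptor signalling, had the lowest ratio, -2.17 (-2.56 to -1.81), and counted as measured through WT alone (4.31 CPM in Spib_KO, 19.4 CPM in WT). Sgk1, a kinase induced by serum and glucocorticoids, fell to 14.5 CPM in Spib_KO, against 46.4 CPM in WT, a ratio of -1.68 (-1.89 to -1.48). Sik1, a kinase gene induced by cAMP, fell to 41.5 CPM in Spib_KO, against 94.5 CPM in WT, a ratio of -1.19 (-1.32 to -1.06). The kinase gene Plk2 had 826 CPM in Spib_KO and 632 CPM in WT, a ratio of 0.39, and was not called. Zfp36, whose protein binds AU-rich elements and speeds the decay of early response messages, was not called, with 479 CPM in Spib_KO and 659 CPM in WT, a ratio of -0.46.

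Among regulators of the MAP kinases, 1 of 6 measured phosphatase genes besides Dusp1 was higher, 16.7% against 2.33% of all measured genes. None was lower, and the median was 0.41. With 6 genes, 1 call is the smallest count above 0. Dusp14, which encodes an atypical small phosphatase, rose to 349 reads in Spib_KO, against 92 in WT, a log2 ratio of 1.99 (1.66 to 2.34). The ERK phosphatase gene Dusp6 had 36.8 CPM in Spib_KO and 34.0 CPM in WT, a ratio of 0.11, and Dusp16, whose product acts on JNK, had 29.4 and 16.8 CPM, a ratio of 0.80 that did not reach the bound. None of the 4 measured Sprouty and Spred genes, feedback inhibitors of ERK signalling, was called, and their median was 0.12. By counts Spred2 had a ratio of -0.27 and Spry2 of 0.17. The deposited TPM of Spred2 was further apart, 3.13 in Spib_KO and 6.87 in WT. Its implied effective length was 15271 bases in Spib_KO and 8430 in WT, so the size of its difference depends on the measure. None of 25 genes of the MAP kinase cascade was called either, against 4.51% of all measured genes. Their median was 0.18 and their range -0.47 to 0.60. Mapk13, which encodes p38 delta, had 387 CPM in Spib_KO and 396 CPM in WT, and Map2k2, an upstream kinase of ERK, had 199 and 228 CPM.

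The 5 measured genes for serum response factor and its cofactors had 0 calls, against 4.51% of all measured genes, and a median of -0.47. Srf itself had 50.2 CPM in Spib_KO and 25.5 CPM in WT, a log2 ratio of 0.98 (0.81 to 1.14), under the bound. Its coactivator genes lay on either side of 0. Mrtfb had 52.9 CPM in Spib_KO and 40.6 CPM in WT, a ratio of 0.38, and Mrtfa had 21.4 and 29.6 CPM, a ratio of -0.47 (-0.66 to -0.27). The measured ETS-type partners had ratios below 0 and were not called. Elk4 had 123 reads in Spib_KO and 303 in WT, a ratio of -1.23 (-1.55 to -0.93), and Elk1 had 55 and 121 reads, a ratio of -1.06 (-1.56 to -0.60). Elk1 counted as measured through WT alone (3.20 CPM in Spib_KO, 6.72 CPM in WT), which fixed its direction.

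Heat shock genes, the other group known to respond to tissue dissociation, had 1 of 11 measured members higher, 0 lower and a median of -0.17. That is 9.09% higher, against 2.33% higher and 2.18% lower over all measured genes. With 11 genes, 1 call is the smallest count above 0. Hspa1a, an inducible Hsp70 gene, rose to 81.6 CPM in Spib_KO, against 28.9 CPM in WT, 2.82-fold higher (95% interval of the log2 ratio 1.35 to 1.65). Its near-identical copy Hspa1b, with which it may share reads, had 23.3 and 10.4 CPM, a ratio of 1.16 (0.91 to 1.42), and was not called. The constitutive chaperone genes Hspa8 and Hsp90ab1 had 1671 and 954 CPM in Spib_KO against 1985 and 1204 CPM in WT, with ratios of -0.25 and -0.34. Hsph1, a cochaperone gene of the Hsp110 family, had 56.6 CPM in Spib_KO and 107 CPM in WT, a ratio of -0.92 (-1.03 to -0.81). Of the 11 ratios 9 lay below 0, against 48.8% of those of all measured genes.

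**Figure D5:**
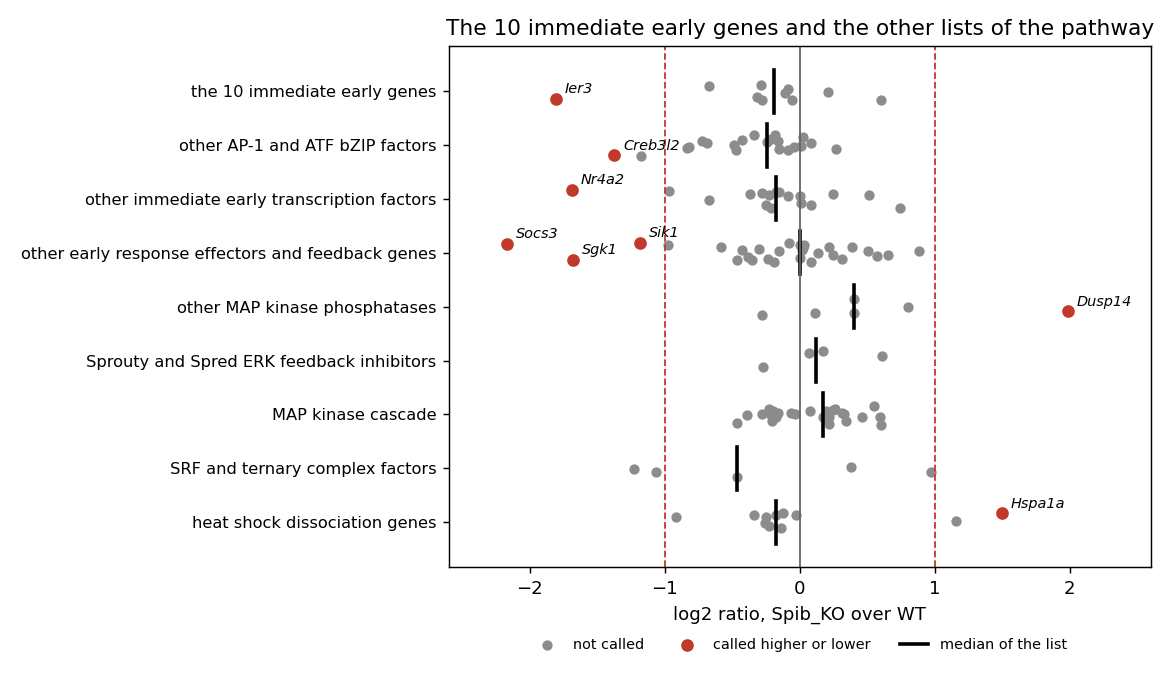
Log2 ratio of Spib_KO over WT for the 10 genes and the measured genes of the 8 other lists (grey points), with called genes in red and named, the median of each list as a black bar and the 2-fold bound dashed. Points are spread vertically at random within a row. The calls are scattered over the lists, with Socs3 lowest at -2.17 and Dusp14 highest at 1.99.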

How the data were processed

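One library of sorted tuft cells per genotype was compared. The submitters' processing notes name HISAT, Bowtie2 2.2.3 and mm10. Per the file headers, the table deposited by the authors holds read counts, FPKM and TPM. These deposited counts are expected counts (18.6% of Spib_KO and 19.0% of WT values are not whole) and were rounded, which changed none of the 10 genes. The program that made them is not stated in the sources used here.

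Counts were scaled by TMM (edgeR 4.0.16, R 4.3.3) to effective totals of 17161039 for Spib_KO and 17996059 for WT. Ratios used a prior count of 0.5 and exact conditional binomial (Clopper-Pearson) intervals, and levels used Poisson intervals. Both cover counting error only, as there was 1 library per genotype, and since no molecular identifiers were used, reads are not independent molecules and the intervals may be too narrow even for that. Measured genes had at least 5 CPM with at least 30 reads in either library. Alternatives were DESeq2 1.42.0 size factors, total counts, upper quartile, tuft marker scaling, another prior, thinning, deposited TPM and FPKM, and other filters and bounds. The procedure was tested on simulated data with counting error alone, which do not cover variation between libraries. There 44 of 50 genes changed 2.5-fold were called, and 0 of 10270 unchanged genes. The changed genes were drawn from levels above that of Ier3. Calculations used Python 3.11.15 with scipy 1.17.1.

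The genes and lists were chosen with earlier results of these data known. The text names the 10 genes, Spib, up to 6 called genes of each list and the 2 with the most reads. The result for 1 such gene is not reported here. Fosl1, Fosl2, Nr4a1, Egr2, Zfp36, Mrtfa, Hsph1, Chgb, Lyz2, Mptx2, Adgre1, Itgam, Elk1, Elk4, Hspa1b and overlapping genes were named after their values were seen. Coordinates and promoters are RefSeq's on GRCm38.p6, the assembly of mm10. Promoter windows on the chromosome of Egr1 were left out before matching. Egr1 therefore had no window, and the background genes with a window include none from that chromosome. For Ier2 no window was found. Exons and UTRs are from GENCODE M21, 1 principal transcript a gene, over genes with a 3′ UTR of at least 100 bases.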

Additional observations from a re-analysis of the deposited data

How the results depend on the processing

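No gene of the 10 changed the sign of its log2 ratio under any alternative, and their median ratio moved by less than the spread between them. The other filters and bounds leave a ratio as it is, so they could not change a sign. Scaling on the sum of the tuft markers took the log2 ratio of Fos to -0.0197 and that of Egr1 to -0.0694, outside their counting intervals; the other alternatives kept each ratio within its interval. Ier3 was called lower under every scaling, with thinning and with deposited TPM and FPKM, where its log2(value + 1) difference was -1.65 and -1.61. For TPM and FPKM the rule was a difference of at least 1 with a value of at least 5 in either library, without an interval. Ier3 counted as measured through WT alone, so a call could only be lower. The number of the 10 called lower was 0 with a CPM minimum of 20 or a bound of 2, and 2 with a bound of 1.5-fold, Atf3 being added. Over all genes, higher and lower calls were 595 and 716 without the filter, 101 and 106 with the CPM minimum of 20, 425 and 419 by the point estimate, 65 and 88 with a bound of 2 and 598 and 591 with a bound of 1.5-fold, which follows from what each rule admits. With FPKM 165 were higher; the cause was not tested. The 8 other lists had 2 lower with the CPM minimum of 20, 8 lower by the point estimate, 0 higher and 0 lower with a bound of 2, and 6 higher and 12 lower with a bound of 1.5-fold. No paired analysis was possible because each genotype has 1 library. Depth limits Ier3 most, at 53 reads in Spib_KO and 196 in WT, and no alternative replaces a second library.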
